A study of Mus musculus with 9 samples.

Results

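The genes described here are 9 chemokine receptors and 1 chemokine with roles in holding blood cells in the marrow or letting them out: Cxcr4, Cxcr2, Ccr1, Ccr2, Cx3cr1, Ccr7, Ccr9, Cxcr3, Cxcr5 and Cxcl12. They were taken by symbol from the gene list of the count matrix by a rule that uses no measured value, though with earlier results of these data known, and they are 10 of 31053 genes. Single cell RNA sequencing of flushed femur marrow was performed on 9 female mice at 9 to 10 weeks of age, 1 library per mouse. Of these, 3 were New Zealand Black (NZB), 3 were New Zealand White (NZW), and 3 were NZBWF1, the F1 hybrid of an NZW mother and an NZB father. The labels name no engineered allele and no treatment in any group. NZBWF1 mice develop a lupus-like disease with age, and at this age the animals were sampled before overt disease, so the strain is a model of a predisposition here. Red cells were lysed before loading, which limits what the data hold of late erythroid cells.

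Chemokine receptors are surface receptors that couple to inhibitory G proteins and direct migration towards a gradient of their ligands. In the marrow, stromal cells secrete Cxcl12, and its receptor Cxcr4 holds stem cells, B-cell precursors and neutrophils close to that stroma. Other receptors act the other way: Cxcr2 draws neutrophils and Ccr2 draws monocytes into the blood, while Ccr7, Cxcr5, Cxcr3 and Ccr9 steer lymphoid and dendritic cells to lymph nodes, follicles, inflamed tissue and gut.

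After filtering, 39051 cells were kept, between 2455 and 5684 per mouse, with 8106539 to 18663189 UMIs per mouse and median UMIs per cell of 2182.5 to 2536.5. Each cell was placed in a class by UMIs of marker lists that hold none of the 10 genes, and 28212 cells (72.2%) were placed. Of the others, 5062 carried markers of several lineages, 720 of none, and 4822 lay between the limits of neighbouring stages. A class is called below by the name of its gate, since no protein was measured. Levels are the UMIs of the gene per 1000000 UMIs of the class in a mouse (CPM), and 20 classes reached 10 cells in at least 6 mice. The libraries shared 170 barcode sequences, which covered 342 of the kept cells. Over all kept cells, placed in a class or not, the UMIs of the 10 genes ranged from 342 for Cxcr5 to 29225 for Ccr2, and for Cxcl12 there were 512.

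In the annotation of the mm10 build, Cxcr4 lies at chr1:128588199-128592293 on the minus strand and Cxcr2 at chr1:74153989-74161246 on the plus strand, neither overlapping another gene. Ccr1 (chr9:123962124-123968692, minus strand) and Ccr2 (chr9:124101950-124113557, plus strand) lie in the chemokine receptor cluster of chromosome 9. The promoters of these 4 receptors are shown because they carry most of the differences between stages and strains reported below. Each sequence runs 5′ to 3′ on the strand of the gene, from 250 bases before to 50 bases after the start (RefSeq, GRCm38.p6), and capitals mark matches to any of 5 short motifs on either strand. They were the TATA box (TATAAA), the GC box (GGGCGG), the CCAAT box, a purine box of the kind ETS factors bind (GAGGAA) and a box of the kind RUNX factors bind (ACCACA).
Cxcr4, chr1:128592250-128592549, minus strand: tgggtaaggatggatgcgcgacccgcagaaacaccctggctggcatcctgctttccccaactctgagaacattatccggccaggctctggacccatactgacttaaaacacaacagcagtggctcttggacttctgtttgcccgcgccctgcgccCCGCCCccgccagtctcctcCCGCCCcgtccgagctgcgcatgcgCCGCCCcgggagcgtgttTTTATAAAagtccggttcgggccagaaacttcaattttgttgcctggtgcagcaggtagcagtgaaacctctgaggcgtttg
Cxcr2, chr1:74153744-74154043, plus strand: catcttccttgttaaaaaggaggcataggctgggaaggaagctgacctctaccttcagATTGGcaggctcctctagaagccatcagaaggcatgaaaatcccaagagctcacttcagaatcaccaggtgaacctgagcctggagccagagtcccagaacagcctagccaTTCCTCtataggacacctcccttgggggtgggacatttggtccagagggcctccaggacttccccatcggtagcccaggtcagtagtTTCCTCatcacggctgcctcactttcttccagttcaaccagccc
Ccr1, chr9:123968643-123968942, minus strand: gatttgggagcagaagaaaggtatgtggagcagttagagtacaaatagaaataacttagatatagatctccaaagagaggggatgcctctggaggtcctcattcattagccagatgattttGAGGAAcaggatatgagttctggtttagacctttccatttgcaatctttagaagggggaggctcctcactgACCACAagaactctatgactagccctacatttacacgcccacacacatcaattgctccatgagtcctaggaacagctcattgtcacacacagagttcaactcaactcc
Ccr2, chr9:124101933-124102232, plus strand: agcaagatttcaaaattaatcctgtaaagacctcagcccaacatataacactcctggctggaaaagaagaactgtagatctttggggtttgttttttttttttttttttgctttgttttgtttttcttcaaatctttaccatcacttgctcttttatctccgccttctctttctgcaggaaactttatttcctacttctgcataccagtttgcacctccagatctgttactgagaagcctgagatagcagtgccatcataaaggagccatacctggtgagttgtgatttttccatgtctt
The Cxcr4 promoter held 3 matches to GGGCGG and a TATAAA match at position -30 from the start, which overlaps a further TATAAA match on the opposite strand. Among all 32851 promoters of this length, 35.7% held GGGCGG and 13.6% held TATAAA. The Cxcr2 promoter held CCAAT and 2 matches to GAGGAA, the Ccr1 promoter held GAGGAA and ACCACA, and the Ccr2 promoter held none of the 5. The shares of all promoters with these motifs were 37.4% for CCAAT, 28.3% for GAGGAA and 16.8% for ACCACA. A match is only a run of letters in this window. Promoters were found for 8 of the 10 genes, those other than Ccr7 and Cxcr5.

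Cxcr4, the receptor for Cxcl12, was found in most classes, and its levels were highest in small pre-B cells, at 332 ± 80.8 CPM (SD, n = 7 mice). Dividing monocytes followed with 222 ± 49.7 CPM, large pre-B cells with 183 ± 33.7 and pro-B cells with 134 ± 32.3 (n = 9 mice each). For small pre-B cells the NZB mice with 5 and 9 cells were left out, and the 1 NZB mouse kept had 11. The mean of that class thus rests mostly on NZW and NZBWF1. The lowest levels were seen in early erythroid and plasma cells, at 14.4 and 18.0 CPM. Neighbouring classes in this order could not be separated after correction (small pre-B cells against dividing monocytes, exact paired permutation test, two-sided, p = 0.0469, adjusted p = 0.438). Over all 10 genes, 0 of 187 such neighbours passed the correction, while 20 had an unadjusted p under 0.05 in the exact test. The smallest p that 9 mice can give in it, 0.00391, passes over 187 neighbours only where many reach it together. The 0 calls thus follow largely from the design and do not show that neighbouring classes are alike. When each cell was thinned to 1000 UMIs, 28.3% of small pre-B cells held a Cxcr4 UMI, against 1.02% of plasma cells. Without thinning these shares were 34.7% and 11.3%, at median depths of 1176 and 9643 UMIs.

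Along B-cell development, Cxcr4 rose from pro-B to large pre-B cells by 0.44 on the log2(CPM + 10) scale, in 8 of 9 mice (exact paired permutation test, adjusted p = 0.0391), which missed the threshold with at least 2000 UMIs per cell or at most 5% mitochondrial UMIs (exact, adjusted p = 0.0710 and 0.0965). Pro-B cells are the earliest stage, and large pre-B cells are the dividing stage that follows. In the next stage, small pre-B cells, which have left the cell cycle and rearrange the light chain, all 7 mice with enough cells were higher still, with a mean difference of 0.87. In mature B cells all 7 mice were lower than in small pre-B cells, with a difference of -1.70. These last steps had the smallest p that 7 mice can give (exact permutation, p = 0.0156) and an adjusted p of 0.0539, so they did not pass the threshold.

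In the monocyte lineage Cxcr4 fell from 222 CPM in dividing monocytes to 77.2 CPM in classical monocytes, by 1.43 on the log2 scale, in 9 of 9 mice (exact paired permutation test, adjusted p = 0.0260). In neutrophils Cxcr4 rose from dividing precursors to immature cells by 0.33 in 9 of 9 mice (exact, adjusted p = 0.0260). From immature to mature neutrophils it was higher in 7 of 9 mice, by 0.39, which missed the threshold (exact, adjusted p = 0.0539). Cxcr4 also rose from early erythroid cells to haemoglobinizing erythroblasts by 0.83, in 9 of 9 mice (exact, adjusted p = 0.0260), and by 0.15 at a limit of 5% mitochondrial UMIs, where it was lost. With at least 2000 UMIs per cell the step from dividing precursors to immature neutrophils turned to -0.54, at 137 of 1656 immature neutrophils left.

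**Figure D1:**
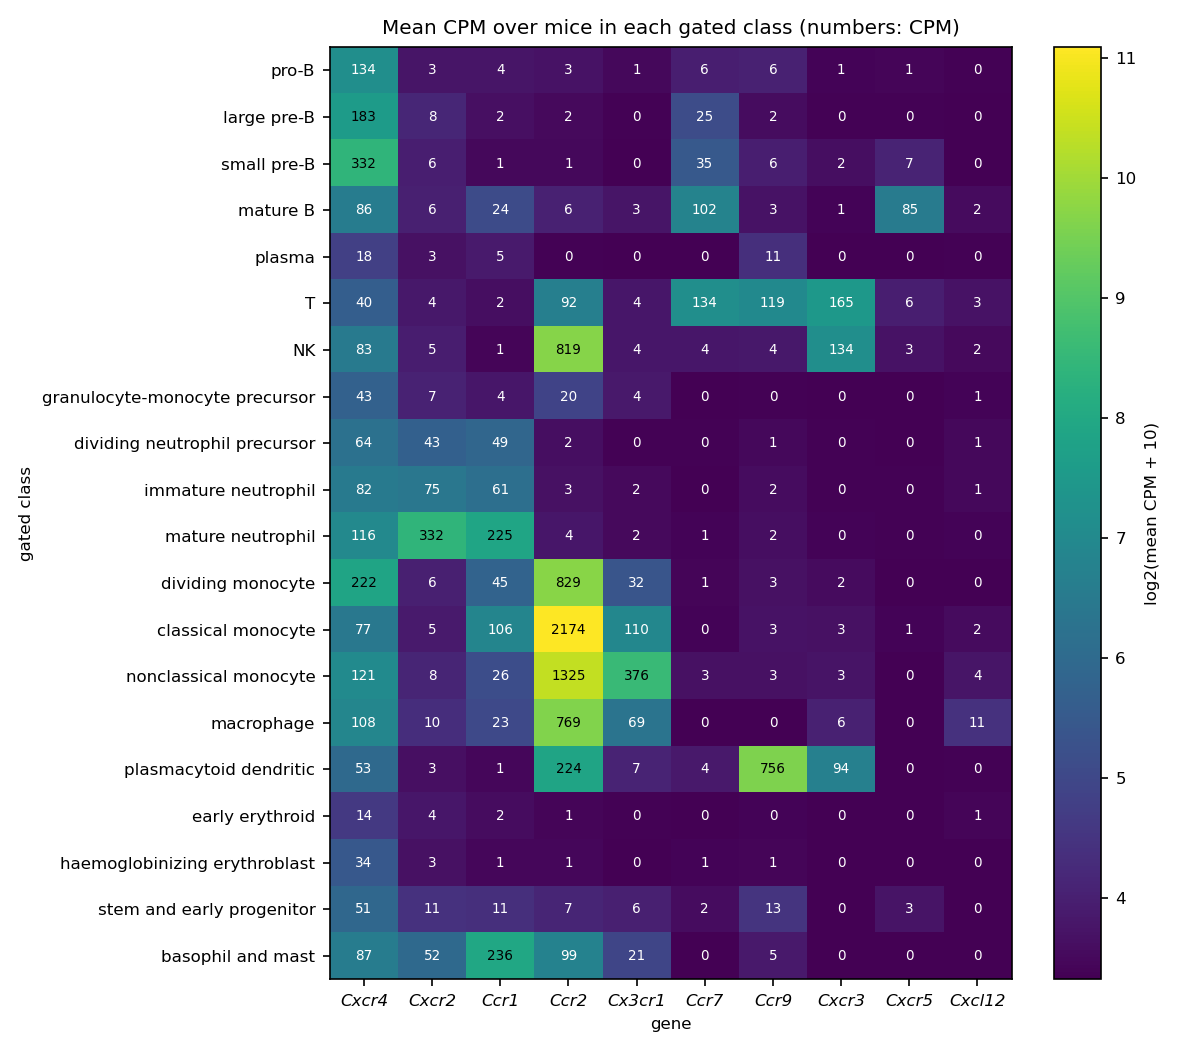
Mean level of the 10 genes in the gated classes that reached 10 cells in at least 6 mice, with the CPM printed in each field and the color giving log2(mean CPM + 10). Cxcr4 is spread over many classes, whereas Ccr9, Cxcr5 and Cx3cr1 each stand out in 1 class.

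Cxcl12 was nearly absent from the cells that could be placed. Only 512 Cxcl12 UMIs were counted in 84 of the 39051 kept cells, and 61 of the 84 held a single UMI. The 9 cells with at least 10 UMIs held 403 of them (78.7%), and the cell with the most held 161 UMIs (31.4%). That barcode came from NZBWF1 mouse 3 and also held 23 UMIs of Lepr and 24 of Adipoq, which mark the marrow stromal cells known as Cxcl12-abundant reticular cells. In all, 6 barcodes held UMIs of both genes, and they held 71.5% of the Cxcl12 UMIs. Of these, 2 were in the gate for stroma and endothelium, and the other 4, with 290 Cxcl12 UMIs, were in no gate and also carried markers of other cells. In 3 of the 4, among them the one with the most Cxcl12, genes of the neutrophil precursor list made up 18.5%, 18.2% and 35.0% of all UMIs. The fourth held 119 UMIs of the early erythroid list, so that in these 4 a stromal cell and a mixture of cells cannot be told apart. The gate for stroma and endothelium took 5 cells, in which Cxcl12 had 95 of 10561 UMIs, or 8995 CPM. No class mean with at least 6 mice was above 11.4 CPM. Per mouse the number of Cxcl12 UMIs in kept cells ran from 1 to 283. In no class did Cxcl12 pass the filter on low counts, so it was tested between strains only over all kept cells. In barcodes with fewer than 100 UMIs, which hold RNA from outside intact cells, Cxcl12 was at 24.4 CPM over all mice, against 4.06 CPM in the kept cells, and was higher there in 9 of 9 mice. NZBWF1 mouse 3 supplied 283 of the UMIs in kept cells, and without it the levels were 23.9 and 2.13 CPM. For the receptors the ratio of these levels lay between 0.451 for Cx3cr1 and 1.5 for Ccr1, and the RNA expected from outside came to at most 0.00202 UMIs per cell for any of the 10 genes.

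**Figure D2:**
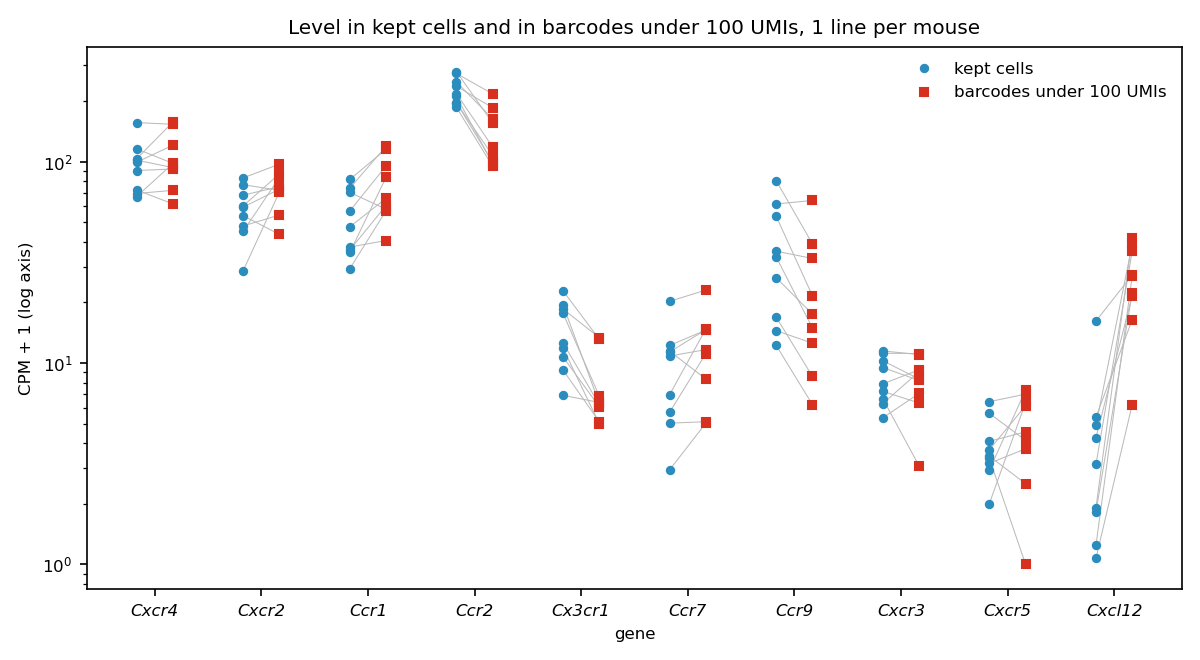
Level of each gene (CPM + 1, log axis) in kept cells (circles) and in barcodes under 100 UMIs (squares), with 1 line per mouse. Cxcl12 was higher outside the kept cells in 9 of 9 mice, and Ccr2 and Cx3cr1 in 0 of 9.

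Cxcr2, the receptor by which neutrophils answer to Cxcl1 and Cxcl2, increased at every step of the neutrophil series. Its mean level was 6.79 CPM in granulocyte-monocyte precursors, 42.7 ± 15.2 in dividing neutrophil precursors, 75.3 ± 16.3 in immature neutrophils and 332 ± 38.8 in mature neutrophils (SD, n = 9 mice each). The steps were 1.63, 0.73 and 2.01 on the log2 scale, each in 9 of 9 mice (exact paired permutation test, adjusted p = 0.0260 each). With at least 2000 UMIs per cell the step from dividing precursors to immature neutrophils was -0.047 and was lost. In mature neutrophils the lowest mouse had 255 CPM, above the highest immature value of 114 CPM. On thinned cells, 28.3% of mature neutrophils and 0.369% of large pre-B cells held a Cxcr2 UMI (46.5% and 1.07% without thinning, at median depths of 1908 and 2335 UMIs).

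Ccr1, a receptor for Ccl3, Ccl5 and other inflammatory ligands, followed the neutrophil series as well. It rose from 3.71 CPM in granulocyte-monocyte precursors to 48.8 in dividing neutrophil precursors (log2 difference 2.11) and from 61.2 in immature to 225 in mature neutrophils (log2 difference 1.75). Both steps were seen in 9 of 9 mice (exact, adjusted p = 0.0260). The step between them, from dividing precursors to immature cells, was 0.24 and did not pass (exact, adjusted p = 0.169). Basophils and mast cells stood beside mature neutrophils, at 236 ± 89.8 CPM (n = 8 mice) and 225 ± 49.7 CPM (n = 9 mice), and this pair did not differ beyond the spread over mice (exact, unadjusted p = 0.922).

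**Figure D3:**
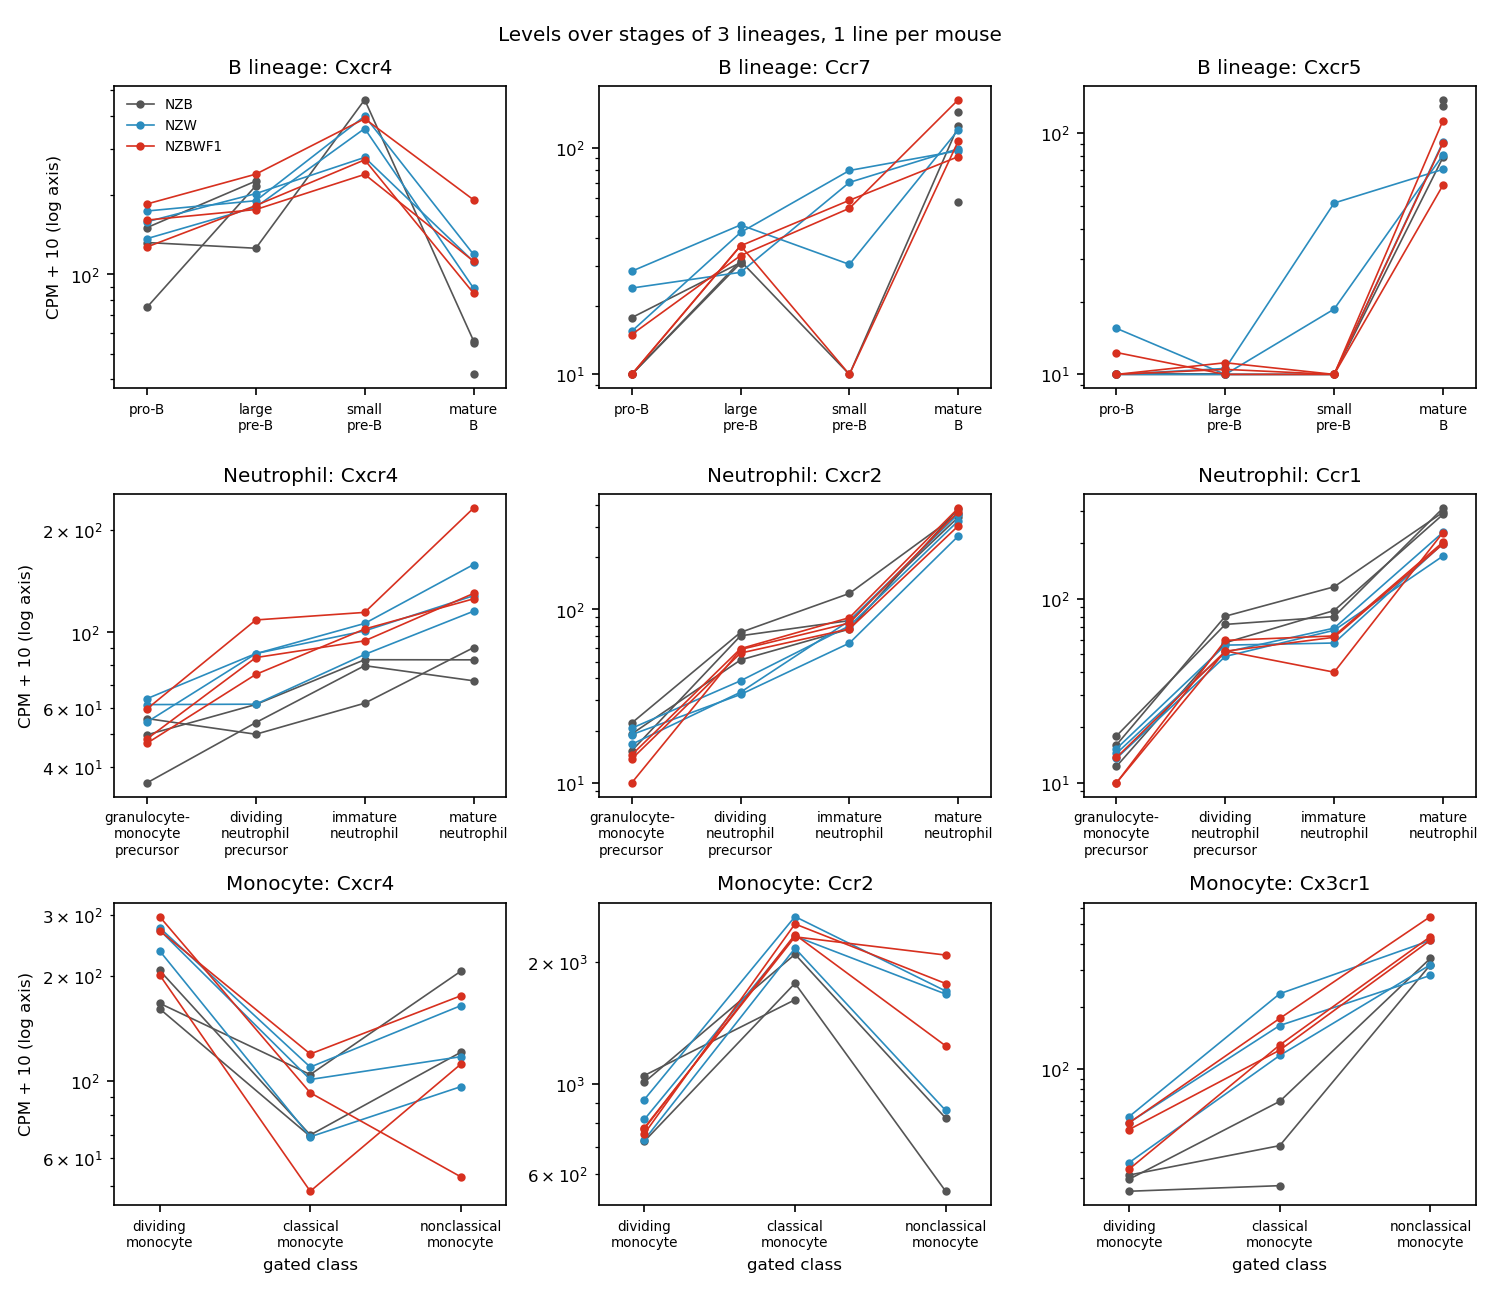
Levels of receptors (CPM + 10, log axis) over the stages of the B-cell, neutrophil and monocyte series, with 1 line per mouse colored by strain. Cxcr2 and Ccr1 climb to mature neutrophils, and Cxcr4 drops from dividing to classical monocytes in every mouse.

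Ccr2 and Cx3cr1 both rose from dividing to classical monocytes and then went in opposite directions. Ccr2, which answers to Ccl2 and is needed for monocytes to leave the marrow, was at 829 ± 123 CPM in dividing monocytes, 2174 ± 318 CPM in classical monocytes (n = 9 mice each) and 1325 ± 548 CPM in nonclassical monocytes (n = 8 mice). The first step was a rise of 1.38 in 9 of 9 mice (exact paired permutation test, adjusted p = 0.0260), and the second a fall of 0.88 in 8 of 8 mice (exact, adjusted p = 0.0391). Cx3cr1, the receptor for fractalkine, rose at both steps, from 31.7 to 110 CPM by 1.33 in 9 of 9 mice and then to 376 ± 85.6 CPM by 1.68 in 8 of 8 mice (exact, adjusted p = 0.0260 and 0.0391). Ccr1 was higher in classical than in dividing monocytes by 1.14 (9 of 9 mice) and lower in nonclassical monocytes by 1.87 (8 of 8 mice), with adjusted p = 0.0260 and 0.0391 in the exact test. With classical monocytes restricted to cells without precursor UMIs, an alternative chosen after the data were seen, the first step of Cx3cr1 and the second of Ccr1 missed the threshold (exact, adjusted p = 0.0539 for each), and the latter also with clusters in place of gates (0.050). Ccr2 was also high in NK cells, at 819 ± 156 CPM against 92.5 CPM in T cells (log2 difference 3.39, 9 of 9 mice, exact, adjusted p = 0.0260). On thinned cells 85.7% of classical monocytes and 0.277% of mature neutrophils held a Ccr2 UMI (94.7% and 0.478% without thinning, at median depths of 1705 and 1908 UMIs).

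The receptors of lymphoid and dendritic traffic were each found in few classes. Ccr9, a receptor for Ccl25 of gut and thymus, was at 756 ± 193 CPM in plasmacytoid dendritic cells and 119 ± 60.2 CPM in T cells, and was at most 12.7 CPM in the other classes. Plasmacytoid dendritic cells held 78.4% of its 4222 UMIs. Ccr7, which guides cells to lymph nodes, was highest in T cells (134 ± 69.9 CPM) and mature B cells (102 ± 31.0 CPM). It rose from pro-B to large pre-B cells by 1.27 in 9 of 9 mice (exact paired permutation test, adjusted p = 0.0260), and was lost at 5% mitochondrial UMIs (exact, adjusted p = 0.164). T and NK cells parted in both receptors, with Ccr7 lower in NK cells by 3.30 and Ccr9 by 3.19, each in 9 of 9 mice (exact, adjusted p = 0.0260). At 5% mitochondrial UMIs the former missed the threshold (exact, adjusted p = 0.0684). Cxcr5, the receptor for the follicle chemokine Cxcl13, was at 84.7 ± 26.3 CPM in mature B cells, which held 57.6% of its 342 UMIs, and at 7.12 CPM in small pre-B cells. Cxcr3, which answers to interferon-induced ligands, was at 165 ± 95.5 CPM in T cells, 134 ± 43.5 in NK cells and 93.6 ± 22.4 in plasmacytoid dendritic cells (SD, n = 9 mice for each).

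Genes whose class means moved most like a receptor over the 20 classes were listed as a description, by Pearson's r of log2(CPM + 10). The classes share libraries and depth, so no test was made. For Cxcr4 the closest gene was Grk2 (r = 0.87), a kinase that phosphorylates activated G protein-coupled receptors, before Ccng2 (0.85) and Mdm2 (0.84). For Cxcr2 they were Asprv1 (0.97), Mmp9 (0.96), which is in the marker list of mature neutrophils, and Retnlg (0.95), which is in the list of neutrophil precursors. Ccr9 was closest to Pmepa1 (0.97) and Pacsin1 (0.95), the latter a marker of the plasmacytoid gate. Cxcr5 was closest to Fcmr, Cr2 and Fcer2a (each 0.95), of which Fcmr and Fcer2a mark the mature B gate. The first gene for the others was Lilr4b for Ccr1 (0.92), Fam105a for Ccr2 (0.93), Naip5 for Cx3cr1 (0.96), Dtx1 for Ccr7 (0.97) and Cd28 for Cxcr3 (0.95).

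The strains were then compared within each class, with UMIs summed per mouse and tested in edgeR over all genes of the class. For NZBWF1 against the mean of its parents, the comparison of the study's design, 1 of 40 tests of these genes passed (0.477% of all gene tests did). Of the 40, 12 had an unadjusted p under 0.05 in edgeR. The share of all gene tests under that unadjusted limit is not given here, so nothing is read from the 12. NZB against NZW gave 13 of 40, 6 higher and 7 lower in NZB, where 7.55% of all gene tests were called. NZBWF1 against NZB gave 14 of 42, 9 higher and 5 lower in NZBWF1, where 2.9% were called. NZBWF1 against NZW gave 1 of 41, where 0.939% were called. The median size of the log2 difference between NZB and NZW was 0.60 for these genes and 0.25 for all genes tested. The 13 calls between NZB and NZW came from 6 genes, and the 14 of NZBWF1 against NZB from 5. The classes come from the same 9 mice, so tests of a gene in several classes are not independent. The contrasts share mice, and those of NZB with NZW and with NZBWF1 both rest on the same 3 NZB mice.

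**Figure D4:**
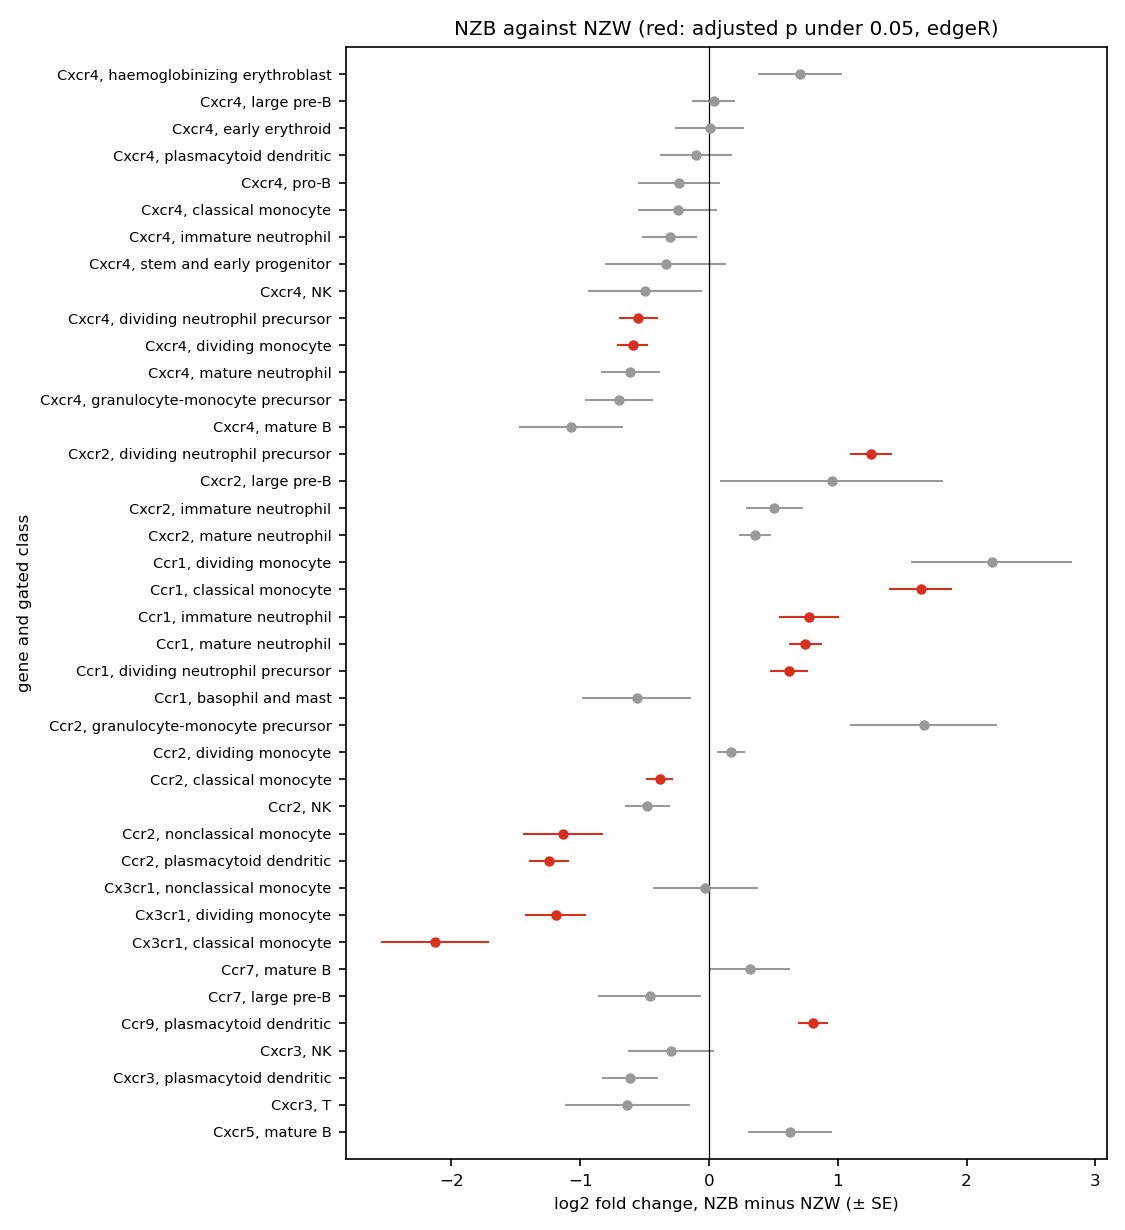
Log2 difference of NZB against NZW (positive where NZB is higher) for each receptor and gated class tested. Bars give a standard error derived from the edgeR F statistic, and red marks an adjusted p under 0.05. The called values of Ccr1, Cxcr2 and Ccr9 lie above 0, and those of Cxcr4, Cx3cr1 and Ccr2 below it.

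Ccr1 was higher in NZB in every class in which it was called, which were classical monocytes and the 3 neutrophil stages. In classical monocytes the NZB mice had 140, 252 and 180 CPM, the NZW mice 82.5, 63.1 and 40.8, and the NZBWF1 mice 94.5, 44.0 and 60.6. All 3 NZB values lay above all others, and those of NZW and NZBWF1 overlapped. The log2 difference of NZB against NZW was 1.64 (SE 0.25, edgeR, adjusted p = 1.55e-05), and that of NZBWF1 against NZB was -1.73 (SE 0.26, edgeR, adjusted p = 2.61e-05). Both calls were kept in all 19 alternative settings. This gene gave the only call of NZBWF1 against the mean of its parents within a class (log2 difference -0.91, edgeR, adjusted p = 0.0496), which was kept in 6 of 19 settings, with an adjusted p of up to 0.680.

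In mature neutrophils the Ccr1 levels were 276, 284 and 300 CPM in NZB, 219, 160 and 189 in NZW, and 219, 188 and 193 in NZBWF1. NZB again lay apart from the other strains, by 0.75 against NZW (SE 0.13, edgeR, adjusted p = 5.96e-05) and by -0.72 for NZBWF1 against NZB (edgeR, adjusted p = 0.000172), in all 18 settings. The differences between NZB and NZW were 0.62 in dividing precursors and 0.78 in immature neutrophils (edgeR, adjusted p = 0.00307 and 0.0332). Those of NZBWF1 against NZB were -0.58 and -0.94 (edgeR, adjusted p = 0.0192 and 0.0352). Without NZB mouse 2 all 4 of these missed the threshold (edgeR, adjusted p = 0.114, 0.373, 0.286 and 0.356). With DESeq2 the calls in immature neutrophils and that of NZBWF1 against NZB in dividing precursors were lost (adjusted p = 0.255, 0.234 and 0.177). The immature call between the parents was also lost without NZW mouse 2 (0.0744) or NZW mouse 3 (0.180). The T-cell list also parted the strains in these stages, at 8.91 to 27.6 CPM in NZB, 329 to 434 in NZW and 208 to 240 in NZBWF1 among mature neutrophils. In NZW and NZBWF1 nearly all of it was Cd3d, and the other 6 genes together had at most 13.8 CPM in any mouse. Among mature neutrophils the macrophage list was at 86.6 to 138 CPM in NZB, 118 to 129 in NZW and 157 to 188 in NZBWF1. The early erythroid list was at 33.5 to 72.1, 78.9 to 123 and 63.5 to 108 CPM in the same order. In immature neutrophils the nonclassical monocyte list was at 21.3 to 44.5 CPM in NZB, 52.4 to 69.0 in NZW and 30.2 to 62.1 in NZBWF1. The part of these lists in the Ccr1 differences was not tested. For NZBWF1 against NZB, leaving out NZBWF1 mouse 1 or 2 also ended the call in dividing precursors, and any mouse of either strain but NZB mouse 3 ended it in immature cells.

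Cxcr2 differed between strains while neutrophil precursors were still dividing. The NZB mice had 41.2, 63.8 and 60.5 CPM, the NZW mice 23.3, 22.3 and 28.8, and the NZBWF1 mice 49.4, 46.0 and 48.8. NZW lay below both other strains without overlap, by 1.26 for NZB against NZW (SE 0.16, edgeR, adjusted p = 2.19e-07) and 0.90 for NZBWF1 against NZW (SE 0.17, edgeR, adjusted p = 0.00139). These calls were kept in all 19 settings. In mature neutrophils, where the level is highest, NZB had 349 and NZW 305 CPM on average, and the difference of 0.36 did not pass (edgeR, adjusted p = 0.0654). The summed level of the granulocyte-monocyte precursor list in dividing neutrophil precursors was 3300 to 6475 CPM in NZB, 1483 to 3553 in NZW and 3703 to 3961 in NZBWF1, with 6 of 6 markers detected in each mouse. The NK list was at 100 to 157 CPM in NZB, 48.4 to 78.9 in NZW and 90.8 to 146 in NZBWF1, so that NZW lay below both, as for Cxcr2. Of this list, all but at most 3.29 CPM was Nkg7. The median mitochondrial share of these cells ran from 1.31% to 1.55% in NZB, 1.59% to 1.92% in NZW and 1.55% to 1.74% in NZBWF1. The part of these lists and of this share in the Cxcr2 and Cxcr4 differences of the class was not tested. With cells of at most 5% mitochondrial UMIs the Cxcr2 calls were kept. All medians of the class lie far below that limit, so this setting cannot decide the part of the share.

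In each Cxcr4 call between strains NZB was the lower one. In dividing monocytes the NZB mice had 157, 151 and 198 CPM, the NZW mice 266, 261 and 227, and the NZBWF1 mice 260, 287 and 192. NZB lay below NZW without overlap, by -0.59 (SE 0.12, edgeR, adjusted p = 0.000639), in all 19 settings. The median mitochondrial share of this class also parted the strains without overlap, at 3.81% to 4.37% for NZB, 4.41% to 4.60% for NZBWF1 and 4.87% to 4.95% for NZW. Its part in the Cxcr4 and Cx3cr1 differences of dividing monocytes was not tested beyond the limit of 5%, which is 1 of the 19 settings. Against NZB, NZBWF1 was higher by 0.53 (edgeR, adjusted p = 0.00756), which was lost without NZB mouse 2 (0.0904) or NZBWF1 mouse 2 (0.165), and the levels of these strains overlapped. In dividing neutrophil precursors Cxcr4 averaged 45.2 CPM for NZB, 68.2 for NZW and 79.5 for NZBWF1. The differences were -0.55 for NZB against NZW and 0.65 for NZBWF1 against NZB (edgeR, adjusted p = 0.0129 and 0.00690). The first was lost without NZB mouse 2 (0.123), NZW mouse 2 (0.135) or NZW mouse 3 (0.0708), and the second without NZB mouse 2 (0.0929) or NZBWF1 mouse 1 (0.0549). With DESeq2 both missed the threshold (adjusted p = 0.111 and 0.0536).

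Mature neutrophils and mature B cells gave a Cxcr4 call for NZBWF1 against NZB alone. In mature neutrophils the values were 80.2, 62.0 and 73.0 CPM in NZB, 106, 118 and 149 in NZW, and 223, 120 and 116 in NZBWF1. NZBWF1 was higher than NZB by 0.90 (SE 0.22, edgeR, adjusted p = 0.0231). The T-cell list, as given above, and the macrophage list, at 86.6 to 138 CPM in NZB and 157 to 188 in NZBWF1, part the same strains, and their part in the call was not tested. NZBWF1 mouse 1 stood above the others, and without it the difference was 0.54 (edgeR, adjusted p = 0.0781). The call was also lost without NZB mouse 2, NZB mouse 3 or NZW mouse 2. In mature B cells NZBWF1 was higher than NZB by 1.31 (SE 0.40, edgeR, adjusted p = 0.0384), on 2 to 6 Cxcr4 UMIs per NZB mouse. This call was lost with DESeq2 (adjusted p = 0.182) and without any 1 of the NZB mice, and without NZBWF1 mouse 1 the difference was 0.81 (edgeR, adjusted p = 0.365). The lists of the gate itself parted these strains, with the B lineage list at 5592 to 7316 CPM in NZB and 9597 to 11063 in NZBWF1. The mature B list was at 3289 to 4101 and 4479 to 5394. Of other lists in this class, the plasma cell list was at 837 to 1098 CPM in NZB and 461 to 494 in NZBWF1, and the pre-B list at 286 to 821 and 1321 to 2326. The stem and early progenitor list was at 0 to 31.8 and 123 to 130. The median mitochondrial share was 6.07% to 6.17% in NZB and 6.26% to 6.94% in NZBWF1. The part of these values in the call was not tested. In large pre-B cells, which precede the stage with the highest Cxcr4, the levels of the strains overlapped.

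**Figure D5:**
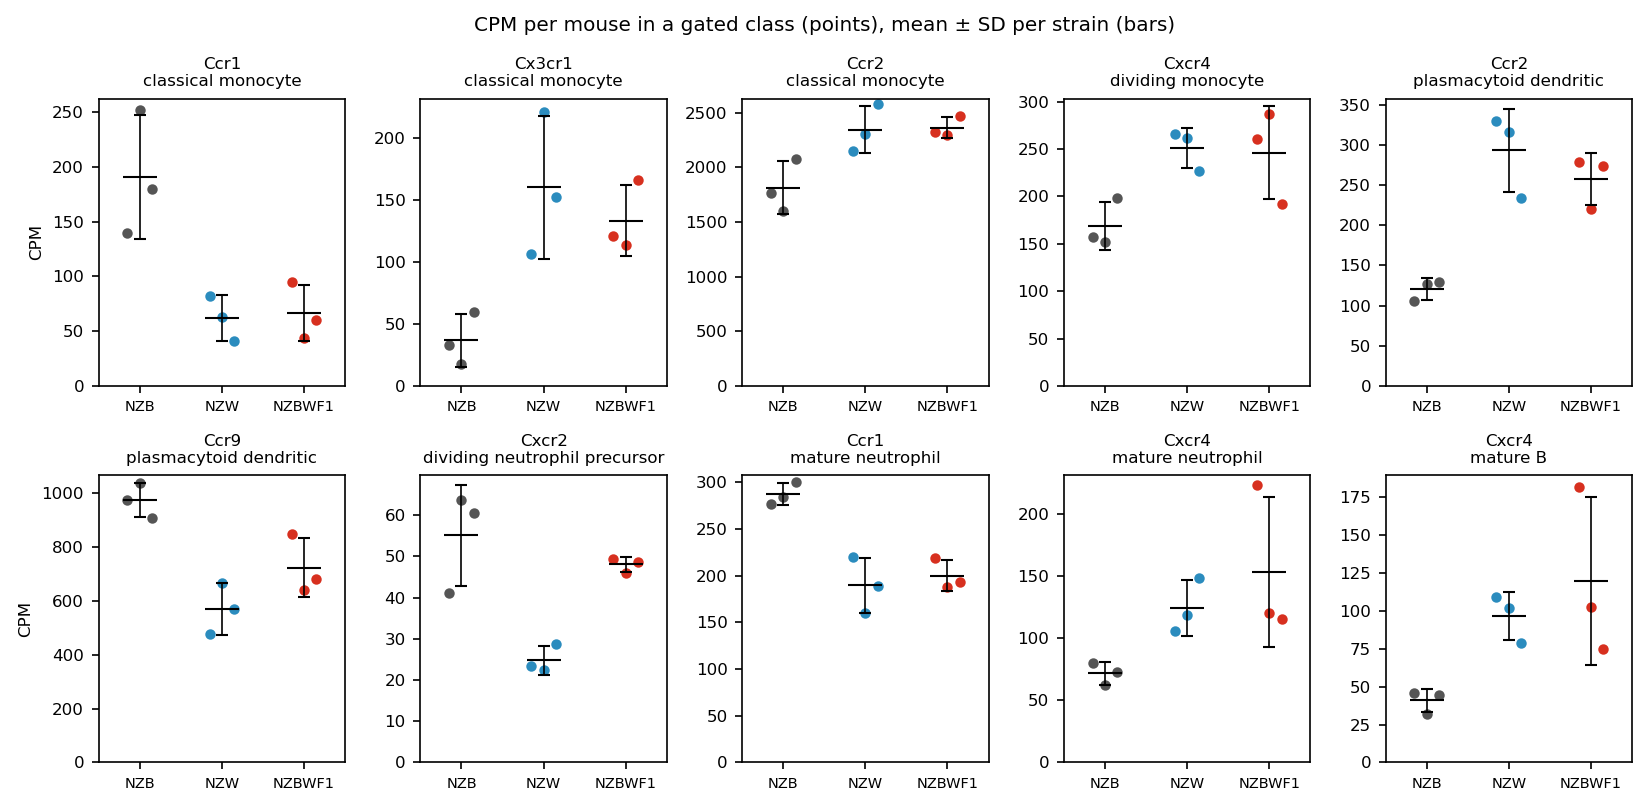
Level of receptors in a selection of the classes with a call between strains (CPM), with 1 point per mouse and bars for the mean and SD of the 3 mice. Called but not drawn are Ccr1 in dividing neutrophil precursors and immature neutrophils and Cxcr4 in dividing neutrophil precursors. Cx3cr1 in dividing monocytes and Ccr2 in nonclassical monocytes are also not drawn. NZB lies apart from NZW for Ccr1 in classical monocytes, Cxcr2 in dividing neutrophil precursors and Ccr2 and Ccr9 in plasmacytoid dendritic cells.

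Cx3cr1 and Ccr2 were lower in NZB than in NZW in each class in which they were called. Cx3cr1 in classical monocytes was at 32.8, 17.5 and 60 CPM in NZB, 107, 221 and 153 in NZW, and 121, 114 and 166 in NZBWF1. NZB lay below both other strains without overlap, by -2.13 against NZW (SE 0.42, edgeR, adjusted p = 0.00494). In dividing monocytes the difference was -1.19 (SE 0.24, edgeR, adjusted p = 0.000428), and both calls were kept in all 19 settings. For NZBWF1 against NZB the values were 1.81 and 1.07 (edgeR, adjusted p = 0.0270 and 0.00674). The former was lost without NZB mouse 1, NZB mouse 2 or NZW mouse 3, and the latter without NZB mouse 2 or NZBWF1 mouse 3. Clusters in place of gates moved the latter to 0.53, and with DESeq2 it missed the threshold (adjusted p = 0.0711).

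Ccr2 in classical monocytes was at 1761, 1603 and 2078 CPM in NZB, 2151, 2304 and 2576 in NZW, and 2325, 2295 and 2470 in NZBWF1. All NZB mice were below all others. The difference of -0.38 between NZB and NZW (SE 0.11, edgeR, adjusted p = 0.00757) was lost without NZB mouse 2 (0.109) or NZW mouse 3 (0.0673). That of 0.36 between NZBWF1 and NZB (edgeR, adjusted p = 0.0244) was lost without NZB mouse 1, NZB mouse 2 or NZBWF1 mouse 3, and with DESeq2 (adjusted p = 0.0514). With at least 2000 UMIs per cell these differences were -0.14 and 0.20 and missed the threshold. In nonclassical monocytes Ccr2 differed by -1.13 between NZB and NZW (edgeR, adjusted p = 0.0237), with 2 NZB mice of at least 10 cells. With clusters in place of gates it was -0.08 (edgeR, adjusted p = 0.935), and with a replicate block -0.90 (adjusted p = 0.0520). It was also lost without NZW mouse 2 or 3. NZBWF1 was higher than NZB there by 1.34 (edgeR, adjusted p = 0.0147), which was 0.16 with clusters and was lost without NZBWF1 mouse 2 or 3. With DESeq2 the calls of this class were lost as well (adjusted p = 0.148 and 0.0673). The median mitochondrial share of nonclassical monocytes was 2.13% to 2.47% in NZB, 2.70% to 3.31% in NZW and 2.66% to 3.16% in NZBWF1. The neutrophil precursor list was at 506 to 999 CPM in NZB and 1195 to 2707 in NZW, and the mature B list at 333 to 337 and 64.5 to 116. The early erythroid list was at 296 to 534 CPM in NZB and 116 to 259 in NZW. For the stroma and endothelium list the values were 84.4 to 222 and 0 to 21.5 CPM. The granulocyte-monocyte precursor list was at 0 CPM in NZB and 38.7 to 187 in NZW. Their part in the Ccr2 differences was not tested.

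Markers of earlier cells within the gate of classical monocytes differed between strains. The summed level of the granulocyte-monocyte precursor list in it was 660 to 1209 CPM in NZB, 174 to 289 in NZW and 113 to 321 in NZBWF1. The neutrophil precursor list was at 2282 to 5110, 1413 to 1487 and 1360 to 1762 CPM in the same order, with 10 to 11 of 12 markers detected in each mouse. An alternative chosen after the data were seen kept the 1933 of 2579 classical monocytes without a UMI of the precursor list. It left 40 of 94, 41 of 137 and 65 of 130 cells in the NZB mice. In NZW it left 237 of 296, 411 of 473 and 321 of 418, and in NZBWF1 100 of 118, 435 of 564 and 283 of 349. The restriction thus took a larger share of the NZB cells. In the cells left, NZB differed from NZW by 1.66 for Ccr1, -2.0 for Cx3cr1 and -0.40 for Ccr2 (edgeR, adjusted p = 2.4e-05, 0.0215 and 0.0350). In the same cells, NZBWF1 against NZB was 1.67 for Cx3cr1 and 0.38 for Ccr2 and missed the threshold (edgeR, adjusted p = 0.121 and 0.0935). The division list was also higher in NZB, at 157 to 307 CPM against 107 to 134 in NZW and 116 to 147 in NZBWF1, and the macrophage list was lower, at 86.7 to 112 against 170 to 177 and 151 to 203. The stem and early progenitor list was at 10.0 to 36.9 CPM in NZB, 25.8 to 63.2 in NZW and 72.9 to 105 in NZBWF1, and the early erythroid list at 55.9 to 82.1, 92.8 to 141 and 79.4 to 168. The part of these 4 lists in the Ccr1, Cx3cr1 and Ccr2 differences was not tested. The median UMIs per classical monocyte ran from 2036 to 2476 in NZB, 1422 to 1841 in NZW and 1557 to 2170 in NZBWF1. In dividing monocytes the neutrophil precursor list was at 2753 to 4905 CPM in NZB, 894 to 1871 in NZW and 1313 to 2422 in NZBWF1. The mature neutrophil list was at 1203 to 1601, 748 to 821 and 819 to 868 CPM there, and the stem and early progenitor list, lower in NZB, at 42.0 to 61.6, 75.3 to 94.2 and 63.2 to 159. The nonclassical monocyte list was at 210 to 235 CPM in NZB, 306 to 317 in NZW and 268 to 320 in NZBWF1 in these cells. The part of these lists in the Cxcr4 and Cx3cr1 differences was not tested.

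Plasmacytoid dendritic cells differed between the strains in both of their main receptors, in opposite directions. Ccr9 was at 975, 1037 and 909 CPM in NZB, 475, 666 and 568 in NZW, and 847, 641 and 683 in NZBWF1. NZB lay above both other strains, by 0.81 against NZW (SE 0.11, edgeR, adjusted p = 2.95e-08), and NZBWF1 was lower than NZB by 0.47 (edgeR, adjusted p = 0.00219). Ccr2 was at 105, 127 and 130 CPM in NZB, 330, 316 and 234 in NZW, and 278, 220 and 274 in NZBWF1. NZB lay below both, by -1.24 against NZW (SE 0.16, edgeR, adjusted p = 4.99e-10) and 1.06 for NZBWF1 against NZB (edgeR, adjusted p = 1.51e-08). The calls between NZB and NZW were lost with at least 2000 UMIs per cell, where 515 of 2361 cells were left and the differences were 0.77 and -1.03 (edgeR, adjusted p = 0.472 and 0.596). For NZBWF1 against NZB, Ccr9 was lost without NZB mouse 2 (0.0588) or NZBWF1 mouse 2 (0.0975) and was 0.052 with at least 2000 UMIs. Ccr2 was -0.18 at a limit of 5% mitochondrial UMIs, which left 338 cells and 6 mice with at least 10. NZB and NZW could not be compared at that limit, as too few NZW mice had enough cells.

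The mitochondrial share and the markers of other cells in this class moved with the strain. The median mitochondrial share of its cells ran from 5.77% to 6.24% for NZB, from 6.30% to 6.96% for NZW and from 6.54% to 7.28% for NZBWF1. The list of stem and early progenitor cells was at 1207 to 1925 CPM in NZB, 150 to 221 in NZW and 364 to 503 in NZBWF1. A single gene of it, Ly6a (Sca-1), had 1171 to 1881, 110 to 164 and 303 to 470 CPM in the same order, and the other 12 genes together had 35.2 to 44.8, 39.6 to 79.4 and 32.4 to 61.4. The plasma cell list was lower in NZB, with 137 to 173 CPM against 301 to 354 in NZW and 242 to 405 in NZBWF1, most of it Mzb1. The monocyte list was 590 to 650 CPM in NZB, 413 to 461 in NZW and 456 to 518 in NZBWF1, of which Ly86 made up all but 36.2 to 96.8 CPM. The conventional dendritic list was at 541 to 570 CPM in NZB, 704 to 838 in NZW and 565 to 716 in NZBWF1. The part of these lists in the Ccr9 and Ccr2 differences was not tested. Cxcr3 was at 72.0 CPM in NZB and 113 in NZW, a difference of -0.61 that did not pass (edgeR, adjusted p = 0.0694).

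Summed over all kept cells, where fewer cells of a class and less RNA per cell cannot be told apart, 5 of 10 genes differed between NZB and NZW (19.2% of all genes were called). Ccr9 was higher in NZB by 2.33 (SE 0.17, edgeR, adjusted p = 3.53e-06), against 0.81 within plasmacytoid dendritic cells. These cells made up 9.20% to 12.7% of the kept cells in NZB mice, 2.51% to 3.13% in NZW and 3.90% to 6.28% in NZBWF1. Ccr1 was higher by 1.11, and Cxcr4, Cx3cr1 and Ccr7 were lower by 0.54, 1.05 and 1.53 in NZB (edgeR, adjusted p = 0.00471, 0.0367, 0.0177 and 0.0396). Those of Cxcr4 and Ccr7 were lost without any 1 of the NZB or NZW mice (adjusted p of up to 0.109 and 0.128), and that of Cx3cr1 without NZB mouse 2 or 3 or NZW mouse 2 or 3 (up to 0.0754). Mature B cells, in which Ccr7 was high, were 0.881% to 3.5% of kept cells in NZB, 4.69% to 8.75% in NZW and 2.38% to 10.8% in NZBWF1. For NZBWF1 against NZB 4 of 10 passed (11.1% of all genes), against NZW 1 of 10 (2.28%), and against the mean of the parents 0 of 10 (0.896%).

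Whether a step between classes differed in size between strains was tested by exact permutation of the strain labels over 280 partitions. Of the steps, 0 of 70 passed the correction, 5 had an unadjusted p under 0.05, and the smallest adjusted p was 0.375 (exact). The smallest p this exact test can give is 0.00357, so a pass over 70 steps needs several at that limit. The rise of Ccr2 from dividing to classical monocytes was 0.99 among NZB mice, 1.52 among NZW mice and 1.62 among NZBWF1 mice (exact, unadjusted p = 0.00714). The rise of Cxcr2 into dividing neutrophil precursors was 1.79, 0.89 and 2.21 in the same order (exact, unadjusted p = 0.0107).

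Ccr9, Ccr1 and Ccr2 lie within 435 kb of chromosome 9, from 123678439 to 124113557, together with 7 other protein-coding genes. The interval is bounded by Ccr9 and Ccr2 themselves, so nothing is read about the region from their calls. Between NZB and NZW, Ccr9 was higher in 1 class and Ccr1 in 4, while Ccr2 was lower in 3. Slc6a20a, Lztfl1, Fyco1 and Cxcr6 were tested and not called. The gene models of Ccr9, Cx3cr1 and Cxcr5 overlap 6, 9 and 1 other genes. The gene that overlaps Cxcr5, Bcl9l, lies on the other strand. Of those that overlap Ccr9 and Cx3cr1, some lie on the same strand, so that these counts are uncertain where such exons overlap.

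Of 37 further chemokines and chemokine receptors, 13 were tested between NZB and NZW, and 4 of 34 tests over classes passed (11.8%), 2 higher and 2 lower in NZB. Of 51 genes of retention, egress and receptor signalling, 45 were tested and 49 of 491 tests passed (9.98%), 15 higher and 34 lower, against 7.55% of all gene tests. The median log2 differences were -0.22 and -0.06, and that of all genes was -0.01. Selplg, the selectin ligand by which leukocytes roll on endothelium, was higher in NZB by 0.97 in dividing neutrophil precursors, 1.08 in immature and 0.98 in mature neutrophils, and lower in plasmacytoid dendritic cells, at -0.41. Rac2, a GTPase of actin assembly, was lower in 4 classes, at -0.61 to -1.04.

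Grk3, Arrb1 and Vcam1 were lower in NZB in each class in which they were called, while Rgs18 went both ways. Grk3, a kinase that desensitizes G protein-coupled receptors, had log2 differences from NZW of -3.30 in dividing monocytes, -2.40 in classical monocytes and -1.45 in dividing neutrophil precursors. Arrb1, an arrestin, was lower in 3 classes, at -0.78 to -1.21. Vcam1, an adhesion ligand, was at -1.26 in granulocyte-monocyte precursors, -0.71 in dividing neutrophil precursors and -2.75 in immature neutrophils. Rgs18, which shortens G protein signals, was lower in dividing neutrophil precursors and mature neutrophils and higher by 0.91 in plasmacytoid dendritic cells. For NZBWF1 against the mean of its parents, 1 of 34 and 1 of 491 tests of these lists passed, against 0.477% of all gene tests, so that these counts are no result about the lists. They were Xcl1 in NK cells, by -0.96, and Tsc22d3 in large pre-B cells, by -0.97 (edgeR, adjusted p = 0.0103 and 0.0208). For NZBWF1 against NZB, 3 of 40 and 23 of 525 tests passed (7.5% and 4.38%, against 2.9% of all gene tests), and against NZW 1 of 34 and 3 of 518 (2.94% and 0.579%, against 0.939%).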

How the data were processed

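The authors deposited UMI counts per gene and barcode, which they made with Cell Ranger 3.1.0 (reads from bcl2fastq 2.20, genome build mm10) from libraries of the 10x 3′ v3.1 kit and merged over the 9 mice. The deposited counts are whole numbers. The study's methods do not say whether depth was equalized over libraries when they were merged. The sources used here do not give the annotation version, and gene positions are those of GENCODE vM21. A barcode's suffix was read as the position of its library in the deposited aggregation list, by the convention of Cell Ranger, since the sources do not say. Columns of other samples numbered 0. The study's methods speak of batches, but the sources used here assign no library to one, so batches were not compared.

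The study's limits of 1000 UMIs, 500 genes and 10% mitochondrial UMIs were applied to the barcodes. Most lineages were gated on single cells by at least 3 UMIs of at least 2 markers of a list, with no list holding a reported gene. Neutrophils instead needed 10% of their UMIs from the neutrophil precursor list. Macrophages and stroma needed 3 markers, and some gates also a minimum share of the cell's UMIs. Dividing stages had at least 0.2% of UMIs in the division list, and their non-dividing stages under 0.1%. Mature neutrophils had at least 0.3% in their list and immature ones under 0.15%. Pro-B cells needed a Dntt UMI. Cells with hits of unrelated lineages were left out. Doublets were otherwise removed only in an alternative. UMIs were summed per class and mouse for mice with at least 10 cells, and were tested with edgeR 4.0.16 (R 4.3.3, TMM, filterByExpr, robust quasi-likelihood) over all genes of the class with the Benjamini-Hochberg correction and a threshold of 0.05. A contrast was made where each of its strains had at least 2 mice. NZBWF1 was set against the parents with the coefficients of the study's methods. Standard errors were derived from the test, as the size of the log2 difference over the square root of its quasi-likelihood F statistic. Steps between classes and neighbours in the order were compared within mice by exact paired sign flips (two-sided) of log2(CPM + 10), a scale that understates the change of low genes. The correction was made over all 100 steps and, separately, over all 187 neighbours. With 9 mice the smallest p is 0.00391, with 8 mice 0.00781 and with 7 mice 0.0156. The strain tests by exact permutation can go no lower than 0.00357. Counting was done with scanpy 1.11.5, numpy 2.4.6 and scipy 1.17.1, and the procedure was tested on simulated data.

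The reported genes and the further lists were chosen with earlier results of these data known. All 10 genes were described in every class. Marker lists of other cells were screened for no overlap between NZB and NZW, at 1.5-fold or more and at least 50 CPM. Lists with smaller differences are therefore not all given. The 3 genes most like each receptor were taken among genes of at least 50 CPM in a class. From the lists of chemokines and of retention and signalling, the genes called in the most classes were named, up to 6 each for the contrast of NZB with NZW and that of NZBWF1 with both parents. Alternatives covered DESeq2 1.42.0, the filter on low counts, 2000 UMIs and 1000 genes per cell, 5% mitochondrial UMIs, removal of simulated doublets, stricter gates, clusters in place of gates, subtraction of free RNA, the pseudocount, a block for the replicate number, and each mouse left out in turn.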

Additional observations from a re-analysis of the deposited data

Results flagged for a closer look

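The data outside the kept cells held a signal of Cxcl12, the ligand of Cxcr4. In barcodes with fewer than 100 UMIs, which entered the comparisons between classes and strains solely through the alternative that subtracts free RNA, 191 Cxcl12 UMIs were counted, 5 to 36 per mouse. Their level of 24.4 CPM was 6.0 times that of the kept cells (4.06 CPM), and it was higher in 9 of 9 mice. NZBWF1 mouse 3 held 283 of the 512 kept UMIs, and without it the ratio was 11.2 (23.9 against 2.13 CPM). Lepr and Adipoq, genes of the stromal cells that make Cxcl12, were higher outside the kept cells as well, by ratios of 2.5 and 5.28, on 118 and 21 UMIs. Without the same mouse these were 2.62 and 8.55. Of 758 Lepr UMIs in kept cells, each of the 9 barcodes with at least 10 Cxcl12 UMIs held at most 23. Lepr also went with the strain outside the kept cells, at 21.6 to 30.9 CPM in NZB and 2.09 to 6.22 in NZW. Inside them it was at 8.93 to 12.4 and 2.26 to 2.72 CPM, and NZBWF1 lay between in both. Cxcl12 outside overlapped between these strains, at 15.4 to 40.6 CPM in NZB and 5.22 to 37.9 in NZW. The receptors had ratios between 0.451 and 1.5. The source of these molecules was not tested.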

How the results depend on the processing

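Of the results compared over alternatives, those of single genes between strains kept direction and side of the threshold in 591 of 724 cases, and those of steps between classes in 221 of 346. The number of calls against the mean of the parents in NZBWF1, 1, was 0 with DESeq2, with at least 2000 UMIs and 1000 genes, with at most 5% mitochondrial UMIs, with simulated doublets removed, with clusters in place of gates, with the replicate block and with classical monocytes without precursor UMIs (an alternative chosen after the data were seen). It was 4 without the filter on low counts, 2 with the minimum of marker UMIs doubled, and 0 to 2 leaving out a mouse. For NZB against NZW the count of 13 was 7 at 2000 UMIs and 9 to 15 leaving out a mouse. For NZBWF1 against NZB the count of 14 was 7 with DESeq2, 4 at 2000 UMIs and 5 to 14 leaving out a mouse. For NZBWF1 against NZW the count of 1 was 2 without the filter and 1 leaving out any mouse. Of 100 steps, 20 were called, 9 at 2000 UMIs, where 50 could be tested, 14 at 5% mitochondrial UMIs, where 70 could be, 18 with classical monocytes without precursor UMIs, 23 of 80 with clusters, and 0 to 18 leaving out a mouse, where 8 mice cannot give a p under 0.00781.

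The results that reversed were Ccr9 in plasmacytoid dendritic cells at 2000 UMIs (NZBWF1 against NZB, 0.052), Ccr2 in the same cells at 5% mitochondrial UMIs (-0.18), and the steps from dividing neutrophil precursors to immature neutrophils at 2000 UMIs of Cxcr4 (-0.54) and Cxcr2 (-0.047). At 2000 UMIs fewer cells remain, with 137 of 1656 immature and 71 of 3978 mature neutrophils, and at 5% mitochondrial UMIs 338 of 2361 plasmacytoid dendritic cells. At that limit NZB and NZW could not be compared in plasmacytoid dendritic cells, and Cxcr4 gave no value for NZBWF1 against NZB in mature B cells. Neighbours and steps by strain gave 0 calls in every setting, which follows largely from the smallest p these tests can give.

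The labels tie no number to a shared animal or day, and not every pair of mice with the same number had a correlation of deviations over 0.1, so the numbers were not taken as pairs. Over all kept cells, same-numbered mice had correlations of 0.15 to 0.29 for numbers 1 and 2 and of -0.05 to 0.03 for number 3 (median 0.22, against -0.05 for different numbers). In mature neutrophils the 9 pairs had 0.0053 to 0.19 (median 0.036, against -0.02), and 9 of 9 mice had their highest mean correlation with their own number. Over all kept cells 6 of 9 did, and in classical monocytes 3 of 9. Depth went with the number in several classes. In dividing and classical monocytes number 1 had the highest and number 2 the lowest median UMIs per cell in each strain. The same order held in granulocyte-monocyte precursors, dividing neutrophil precursors, immature neutrophils, plasmacytoid dendritic cells and stem and early progenitor cells. Mature neutrophils of NZW did not follow it. Number 1 also had the fewest kept cells, at 2455 in NZB, 4309 in NZW and 2566 in NZBWF1. In dividing monocytes the median UMIs per cell in NZB, NZW and NZBWF1 were 5064, 4579 and 5554 for number 1. They were 3286.5, 3398.5 and 3225 for number 2, and 3982.5, 3993 and 3991 for number 3. The source of this match was not tested. These are hints from the data, not the design. With the replicate block 15, 14 and 1 calls were made for NZB against NZW, NZBWF1 against NZB and NZBWF1 against NZW. Each replicate was a separate mouse and 1 library, so that animal and preparation cannot be told apart.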
